A study of Homo sapiens with 72 samples.

Results

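Histone genes were followed in polyadenylated RNA of PEO1 cells, an established high-grade serous ovarian cancer cell line, after exposure to rucaparib. The genes were chosen by name, as protein-coding genes whose older symbols start with HIST1H, HIST2H, HIST3H, HIST4H, H2AF or H3F3, which gave 83 genes of the 56272 genes with a matched transcript. Of these, 71 were replication-dependent genes (6 for H1, 17 for H2A, 18 for H2B, 15 for H3 and 15 for H4) and 12 were variant genes (9 for H2A and 3 for H3). In all, 82 had a transcript in the deposited tables, 55 lay on chromosome 6 and 16 on chromosome 1. Enough reads for a test were present for 68 genes, 57 of them replication-dependent and 11 variant. HIST2H2AA3 and HIST1H4G, both replication-dependent, had no read in any library.

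Rucaparib, an inhibitor of poly(ADP-ribose) polymerase (PARP) that is itself fluorescent, was given at 8.5 µM for 2 or 24 h. Cells were then sorted on the drug's own fluorescence into the brightest 20% (Ruc_High) and the dimmest 20% (Ruc_Low), or were taken unsorted (Ruc_Total), and unsorted cells given DMSO in place of the drug served as controls (Vehicle). This made 8 groups of 3 replicates, with 3 libraries for each replicate, 72 libraries in all. Unsorted cells were lysed where they grew, whereas sorted cells had been detached, sorted cold and washed first, so that sorting and handling cannot be told apart. All values come from 1 cell line, and a lower level in such bulk RNA can mean fewer cells of a kind or less RNA per cell, which cannot be told apart.

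Histones are the proteins around which DNA is wound. Replication-dependent histone genes sit in clusters and are transcribed mainly in S phase, and their mRNAs are known to end in a short stem-loop, bound by the protein SLBP, in place of a poly(A) tail. Variant histones such as those of H2AFZ and H3F3B are made through the whole cell cycle from ordinary polyadenylated mRNAs, while H2AFX is known to give both a stem-loop and a polyadenylated mRNA. Selection on poly(A) therefore keeps variant histone mRNAs and loses most replication-dependent ones. What it keeps of the second class are transcripts with a tail, often longer forms that run past the stem-loop, and some carry-over.

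The libraries held 17391033 to 38899905 reads (median 33431403.5), and 7.11% to 8.96% of the reads were on transcripts that could not be matched to a gene. After the 3 libraries of each replicate were added up, 87969341 to 107683767 reads in genes remained per sample. The mean length of the transcripts that the reads came from, weighted by reads, was 2255 to 3299 bases over the libraries. More than 25000 genes were detected in 2 libraries, 1 of Ruc_Low at 2 h (replicate 2) and 1 of Vehicle at 2 h (replicate 1), against 20795 to 24188 in the rest. All 10 markers of the ovarian epithelial line were read in every sample, among them PAX8 at 143 to 229 and WT1 at 28.3 to 42.9 reads per 1000000 reads in genes (CPM). The 10 markers of other cell types summed to 23.8 to 47.4 CPM, nearly all from CD68 and COL1A1, and the defining markers CD3E and COL3A1 had a median of 0.

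The stem-loop was searched on the transcripts' own strand as GGNNCTTNTNANNNCC in GENCODE release 29 (GRCh38). It was present in at least 1 transcript of 32 of 71 replication-dependent genes (7 of 17 for H2A, 11 of 18 for H2B, 6 of 15 for H3, 8 of 15 for H4 and 0 of 6 for H1) and of 1 of 12 variant genes, H2AFX. Of all genes with a protein-coding transcript, 1.61% held it. Many annotated histone transcripts stop at or near the end of the coding sequence, and a gene without a match says only that these letters are not in its annotated transcripts. The following sequences, each from a long form that runs on past the stem-loop, are shown because HIST1H4H, HIST2H4A, HIST4H4 and HIST1H2AC were more than 2-fold lower in Ruc_High than in Ruc_Low at both times in 1 replicate, HIST1H3E is another long form, and H2AFX is the variant gene that keeps the element. The 16 bases of the pattern are in capitals.
HIST1H4H: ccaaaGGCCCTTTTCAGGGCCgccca
HIST2H4A: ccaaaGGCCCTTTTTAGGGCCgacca
HIST4H4: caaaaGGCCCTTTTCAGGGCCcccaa
HIST1H2AC: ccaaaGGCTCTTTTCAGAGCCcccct
HIST1H3E: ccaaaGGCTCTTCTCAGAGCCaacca
H2AFX: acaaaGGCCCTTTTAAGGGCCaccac
In these forms 1655 bases followed the stem-loop in HIST1H4H (a form of 2163 bases), 1167 in HIST2H4A (1547 bases), 1510 in HIST4H4 (1918 bases), 1128 in HIST1H2AC (1668 bases), 1862 in HIST1H3E (2679 bases) and 821 in H2AFX (1373 bases). The 16 letters were the same in HIST1H4H and HIST4H4, both H4 genes, while HIST2H4A differed from them in the loop. HIST1H2AC carried the version found in 17 of the 32 genes.

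Promoters, taken from RefSeq (GRCh38.p14) as 250 bases before to 50 after each start, were found for 77 of the 83 histone genes. The 3 short motifs given here were searched on both strands. The octamer ATTTGCAT, a site of the factor OCT1 in human H2B promoters, was in 15 of 20 H2B and 11 of 16 H2A promoters, against 0 of 13 for H4, 0 of 6 for H1, 1 of 15 for H3 and 1.77% of all promoters. Many H2A and H2B genes lie head to head, so that 1 octamer can be counted for both. The letters CCAAT were in 60 of 70 replication-dependent promoters and in 34.6% of all, and TATAAA in 47 of 70 and in 11.5% of all. An H4 and an H2B promoter are shown because their genes, HIST1H4H and HIST1H2BK, were high in the same samples while their promoters share none of these letters. Capitals mark the octamer, CCAAT and TATAAA on either strand. The first lies at chr6:26285485-26285784 (minus strand) and holds none of the motifs, and the second lies at chr6:27146809-27147108 (minus strand) and holds all 3.
HIST1H4H: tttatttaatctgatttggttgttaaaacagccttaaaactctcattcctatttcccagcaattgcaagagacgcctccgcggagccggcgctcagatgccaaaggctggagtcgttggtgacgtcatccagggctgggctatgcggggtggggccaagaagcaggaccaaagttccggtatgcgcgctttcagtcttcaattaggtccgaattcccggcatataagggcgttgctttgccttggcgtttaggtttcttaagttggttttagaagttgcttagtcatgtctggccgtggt
HIST1H2BK: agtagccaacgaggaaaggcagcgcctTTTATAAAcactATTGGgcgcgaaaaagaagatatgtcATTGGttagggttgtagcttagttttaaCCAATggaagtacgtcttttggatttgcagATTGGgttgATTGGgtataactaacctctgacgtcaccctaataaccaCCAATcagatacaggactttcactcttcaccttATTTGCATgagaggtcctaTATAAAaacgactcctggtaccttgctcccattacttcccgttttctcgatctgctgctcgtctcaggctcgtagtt

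Replication-dependent histone genes gave few reads. Summed over the 71 genes they made up 31.9 to 109 CPM per library (median 43.5), while the variant genes made up 2228 to 3918 CPM (median 2716), so that the replication-dependent class held 1.04% to 4.35% of all histone reads. By family the median per library was 12.5 CPM for H2B, 12.2 for H2A, 8.57 for H4, 6.29 for H1 and 2.49 for H3.

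**Figure D1:**
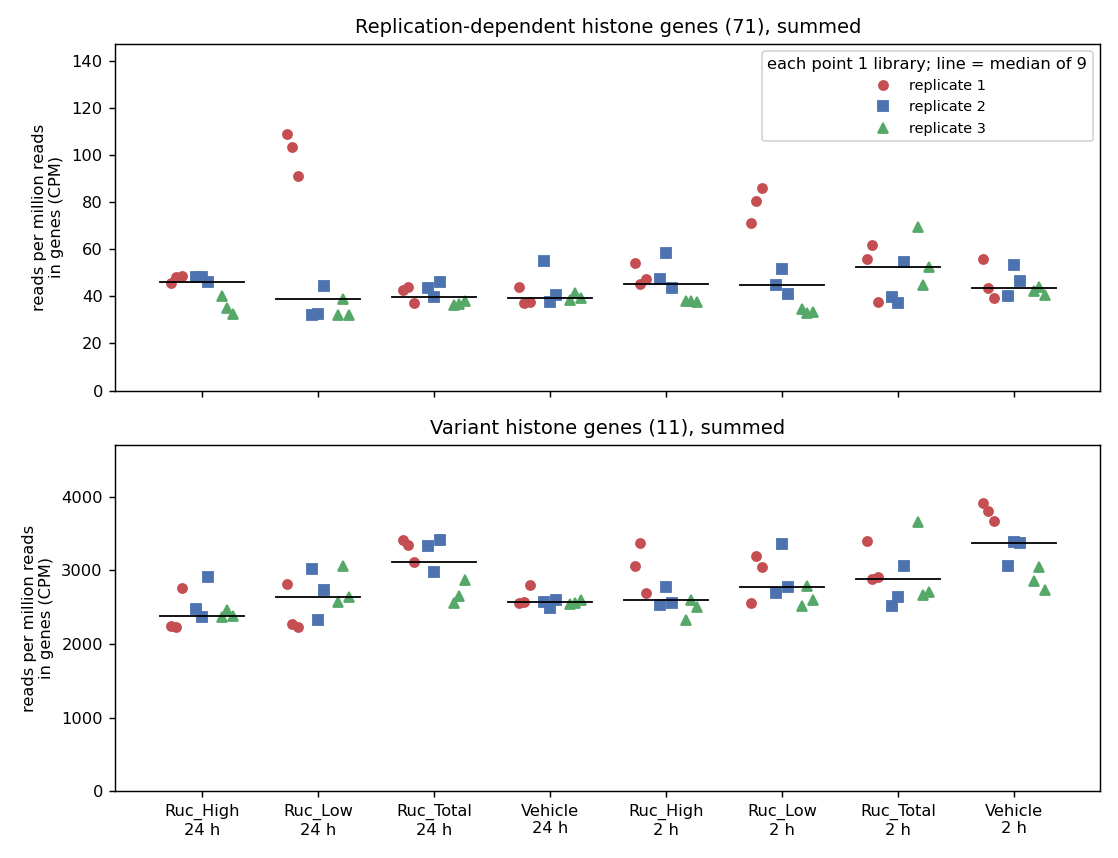
Reads of replication-dependent (top) and variant (bottom) histone genes in CPM, 1 point per library, for 8 groups with replicates by colour and the median of 9 libraries as a line. The libraries of Ruc_Low replicate 1 lie at 91.1 to 109 CPM at 24 h and 71.3 to 86.2 CPM at 2 h, above all 66 others in the top panel, and not in the bottom panel.

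On the length-corrected TPM scale (transcripts per 1000000 transcripts), which allows levels of different genes to be compared where listed lengths are right, 8 replication-dependent genes led their class. HIST1H2BK and HIST1H2BH, both H2B genes, had mean TPM of 12.9 and 7.10 over the 24 summed samples, and HIST1H1C, a linker histone gene, had 8.44. HIST2H2AA4 and HIST3H2A, for H2A, stood at 5.31 and 5.25, HIST1H4J and HIST2H4B, for H4, at 4.71 and 4.59, and HIST1H2BD, another H2B gene, at 3.71. The value of HIST3H2A rests on 1 transcript placed through its gene symbol, and most of the sequence of HIST2H2AA4, HIST2H4B and HIST1H4J is shared with other histone genes (97.2%, 97.2% and 82.2% of their 31-base stretches), so the split of reads among such copies is uncertain. Ranks also depend on the listed transcript lengths, many of which stop near the end of the coding sequence. HIST1H4J had a mean of 95.8 reads per sample, while HIST2H4A, lower in TPM at 3.29, had 320. Of the 71 genes, 54 were read in all 24 samples, and 51 had a mean below 1 TPM.

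Variant genes were higher by far. H3F3B, which encodes the replacement form of histone H3, had a mean of 2659 TPM (2332 to 3184 over the 24 samples), and H3F3A, which encodes the same protein, had 184 TPM (121 to 297). H2AFZ and H2AFV, which encode the H2A.Z proteins placed at promoters, had 435 and 166 TPM. H2AFY, for a macroH2A of silent chromatin, had 144 TPM, H2AFX 41.1 TPM, H2AFJ 20.96 TPM and H2AFY2, the second macroH2A gene, 8.18 TPM. The lowest tested variants were H3F3C at 1.05 TPM and the testis genes H2AFB1 and H2AFB3 at 0.127 and 0.0908 TPM.

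Ruc_High against Ruc_Low asks whether cells that held more drug differed in histone RNA. No histone gene passed the test at either time, but 1 replicate of Ruc_Low stood apart. At both times its replicate 1 had more replication-dependent histone RNA than any other sample, in H4, H2A and H2B genes and above all in long forms. Replicate 1 of Ruc_High was not high, and neither were replicates 2 and 3 of Ruc_Low. The summed variant histones were not high in that replicate, at 2441 CPM against 2694 and 2756 CPM in replicates 2 and 3 of Ruc_Low at 24 h, and 2931 against 2944 and 2632 CPM at 2 h. Among single variants, H3F3C had its highest value of all samples in Ruc_Low replicate 1 at 24 h (2.18 CPM).

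In CPM, the mean of the 3 libraries of each replicate, the replication-dependent sum at 24 h was 47.6, 47.4 and 35.8 in Ruc_High replicates 1, 2 and 3, against 101, 36.3 and 34.3 in Ruc_Low. At 2 h it was 48.97, 49.7 and 37.8 in Ruc_High, against 79.3, 45.8 and 33.6 in Ruc_Low. In replicates 2 and 3 Ruc_Low lay below Ruc_High at both times, and in replicate 1 far above it. The group values, 43.6 ± 6.73 CPM for Ruc_High and 57.3 ± 38.1 CPM for Ruc_Low at 24 h, and 45.5 ± 6.65 and 52.9 ± 23.6 CPM at 2 h (mean ± SD, n = 3), therefore rest on that replicate. All 6 libraries of it were high, at 91.1 to 109 CPM (24 h) and 71.3 to 86.2 CPM (2 h), while the 66 other libraries lay between 31.9 and 69.7 CPM.

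By family, the libraries of replicate 1 at 24 h held 11.1 to 11.9 CPM of H4 genes in Ruc_High, against 32.04 to 41.6 CPM in Ruc_Low. H2B genes held 12.2 to 14.9 CPM in Ruc_High against 27.9 to 31.5 CPM in Ruc_Low, and H2A genes 12.3 to 13.2 CPM against 20.2 to 26.7 CPM. H3 genes, with 2.24 to 3.13 CPM in Ruc_High and 3.88 to 4.704 CPM in Ruc_Low, followed at a low level. The linker histone genes of the H1 family overlapped, at 5.56 to 8.15 CPM in Ruc_High and 6.02 to 8.11 CPM in Ruc_Low. At 2 h H4, H2B and H2A were again higher in the Ruc_Low libraries of replicate 1, with 9.46 to 12.9 CPM of H4 in Ruc_High against 23.6 to 32.8 CPM in Ruc_Low. H3 overlapped there, with 2.43 to 3.52 CPM in Ruc_High and 2.92 to 4.89 CPM in Ruc_Low, and so did H1, with 6.79 to 8.31 CPM and 4.91 to 7.62 CPM. Of the core histones, which make up the nucleosome, H4, H2B and H2A were thus separate at both times and H3 at 24 h alone.

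HIST1H4H, which encodes histone H4, showed this most clearly. It was chosen after its values were seen, as were HIST2H4A and HIST1H2AC. At 24 h HIST1H4H had 1.94, 0.660 and 0.579 CPM in Ruc_High replicates 1 to 3, against 12.8, 0.935 and 0.610 CPM in Ruc_Low, and at 2 h 1.76, 0.755 and 0.552 CPM in Ruc_High, against 9.87, 0.743 and 0.908 CPM in Ruc_Low. Replicate 1 was the higher one in Ruc_High too, and over all 8 groups replicate 1 lay between 1.76 and 12.8 CPM while replicates 2 and 3 lay between 0.535 and 0.935 CPM, with no overlap. The log2 fold change of Ruc_High over Ruc_Low was -2.17 (SE 1.18) at 24 h and -1.91 (SE 1.17) at 2 h, and edgeR's adjusted p was 1.00 for both.

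HIST2H4A, a second H4 gene, had 2.96, 2.98 and 1.437 CPM in Ruc_High at 24 h, against 11.9, 2.78 and 2.35 CPM in Ruc_Low, and 3.26, 3.21 and 0.812 CPM in Ruc_High at 2 h, against 9.35, 2.27 and 1.64 CPM in Ruc_Low. Because 98.6% of its 31-base stretches also occur in other histone genes, chiefly its copy HIST2H4B, the 2 were also added up, which gave 5.56 CPM in Ruc_High replicate 1 against 15.7 CPM in Ruc_Low replicate 1 at 24 h, and 5.58 against 11.5 CPM at 2 h. The difference in replicate 1 is thus present in the sum of both copies. HIST1H2AC, an H2A gene with little shared sequence (1.80%), had 2.99, 3.34 and 2.22 CPM in Ruc_High at 24 h, against 8.43, 2.25 and 1.19 CPM in Ruc_Low, and 2.84, 3.41 and 2.12 CPM in Ruc_High at 2 h, against 6.88, 2.64 and 1.78 CPM in Ruc_Low.

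Among the most abundant genes of the class, HIST1H2BK had 4.78, 4.99 and 3.92 CPM in Ruc_High at 24 h, against 9.04, 2.74 and 2.94 CPM in Ruc_Low. HIST2H2AA4 had 2.54, 3.15 and 2.26 CPM in Ruc_High at 24 h, against 6.12, 1.83 and 1.47 CPM in Ruc_Low. In both genes Ruc_Low was the higher of the pair in replicate 1 and the lower in replicates 2 and 3. HIST1H1C, a linker histone gene, did not share the pattern, with 5.42, 6.52 and 4.30 CPM in Ruc_High at 24 h and 5.39, 4.703 and 4.17 CPM in Ruc_Low.

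**Figure D2:**
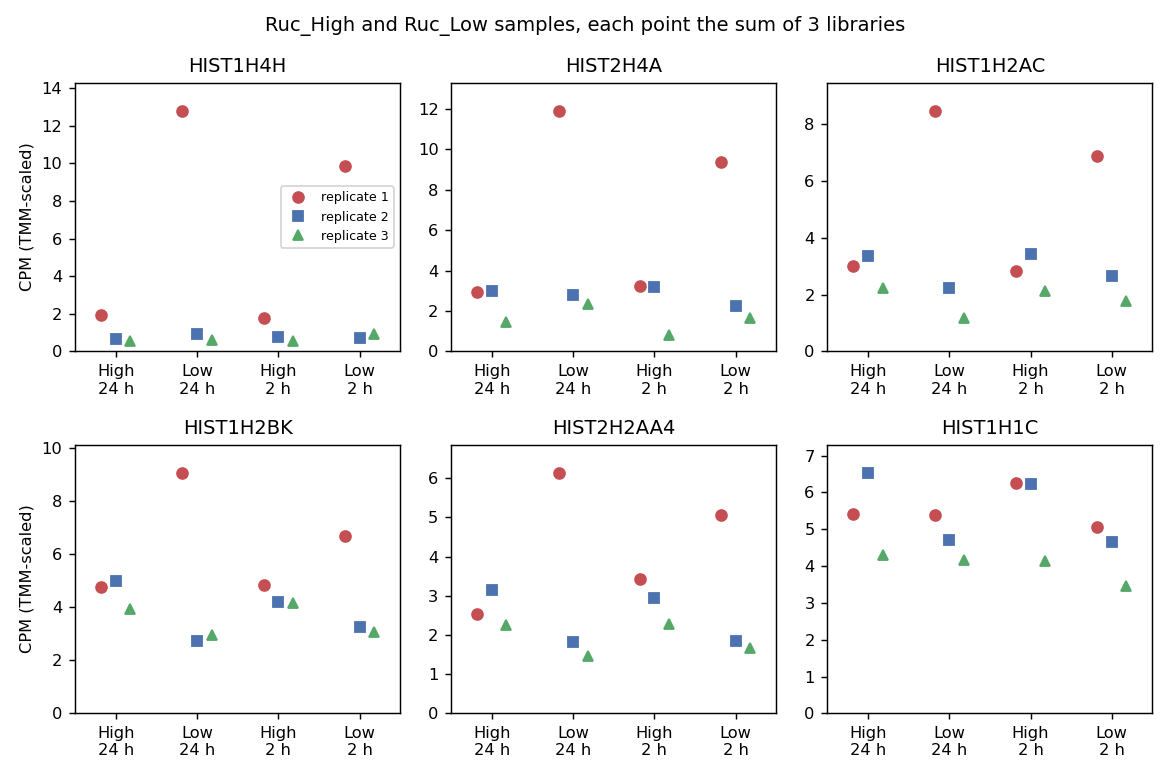
TMM-scaled CPM of 6 replication-dependent histone genes in Ruc_High and Ruc_Low at 24 h and 2 h, each point the sum of the 3 libraries of a replicate. Replicate 1 of Ruc_Low is the highest point in 5 panels (HIST1H4H reaches 12.8 CPM at 24 h) and lies among the others for HIST1H1C.

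Over the 57 tested genes of the class, 4 (7.02%) were more than 2-fold lower in Ruc_High than in Ruc_Low at both times in replicate 1, on log2(CPM + 0.5), namely HIST1H4H, HIST2H4A, HIST1H2AC and HIST4H4, against 0.482% of all tested genes. In replicates 2 and 3 the count was 0 of 57, with 0.0348% and 0.0248% of all genes. A sample of Ruc_Low replicate 1 (24 h or 2 h) was the highest of all 24 for 21 of 57 replication-dependent genes (36.8%) and for 1 of 11 variant genes (H3F3C), against 11.6% of all genes. These counts describe samples picked out by their sums and carry no test.

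The reads of the class were split by transcript length. Forms of up to 600 bases (800 for H1), about the size of the tail-less mRNA, were called short and others long. The quantifier estimates this split where forms of a gene overlap. Where a gene had 1 listed transcript, as HIST1H2BK did, its listed length alone set the label. Many listed transcripts stop near the end of the coding sequence, so short sums can hold reads of longer RNA. Long forms held 28.2% to 58.9% of the class's reads per library (median 40.9%). In replicate 1 at 24 h long forms summed to 21.4 CPM in Ruc_High and 57.95 CPM in Ruc_Low, and short forms to 26.1 CPM and 43.3 CPM. At 2 h long forms summed to 21.1 CPM in Ruc_High and 43.9 CPM in Ruc_Low, and short forms to 27.8 CPM and 35.4 CPM. Both kinds were higher in Ruc_Low replicate 1, and the long kind by more. For HIST1H4H the forms of 2163 and 1034 bases, which hold the stem-loop printed above and run past it, had 1.13 and 0.745 CPM in Ruc_High replicate 1 at 24 h, against 5.88 and 6.71 CPM in Ruc_Low replicate 1, while the form of 409 bases stayed at or below 0.368 CPM in every sample.

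**Figure D3:**
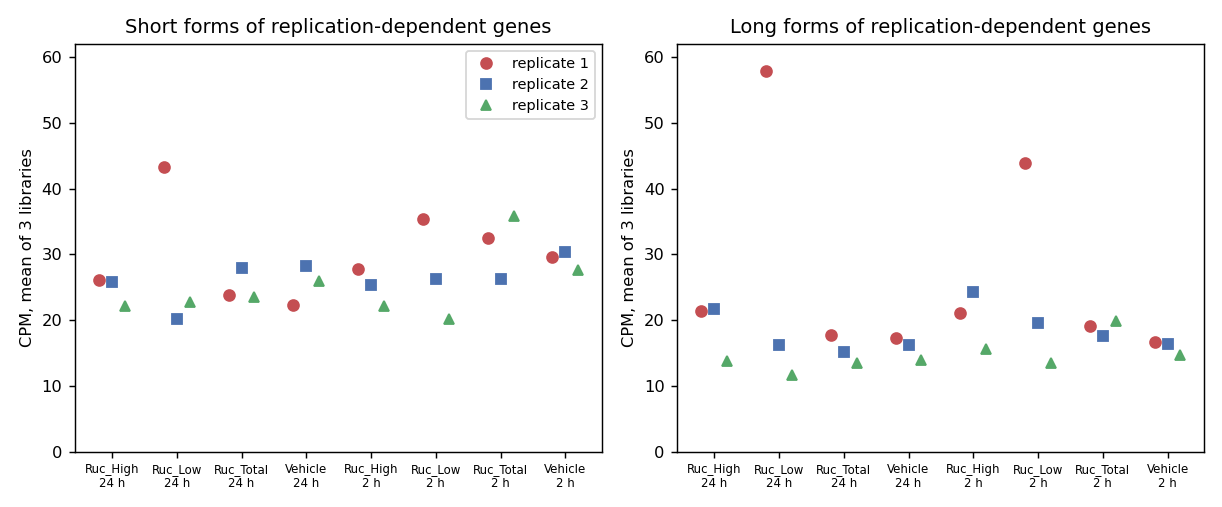
Short (left) and long (right) forms, by listed length, of replication-dependent histone genes, in CPM as the mean of 3 libraries, by group and replicate. In the right panel Ruc_Low replicate 1 reaches 57.95 CPM at 24 h and 43.9 CPM at 2 h, and the other points lie at 24.3 CPM or lower.

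With edgeR's quasi-likelihood test, 0 of 68 histone genes passed an adjusted p of 0.05 in Ruc_High against Ruc_Low at 24 h (0.109% of all genes passed) and 0 at 2 h (0.00497% of all). At an unadjusted p of 0.05 the counts were 4 and 1 of 68, beside 823 and 647 of all 20131 genes. DESeq2 gave 0 at both times, and with the replicate number as a block the counts were also 0 (0.611% and 0.378% of all genes). The median log2 fold change was -0.46 over the replication-dependent genes at 24 h and -0.27 at 2 h, against -0.10 and -0.03 over the variant genes and -0.01 and -0.00 over all genes. Other lists and genes were read in the same samples. At 24 h genes of G2 and mitosis summed to 1735, 1851 and 2459.6 CPM in Ruc_High replicates 1, 2 and 3, against 1805, 2515 and 2939 CPM in Ruc_Low, so that replicate 1 was the lowest in both. H1F0, a linker histone gene outside the chosen names, had 573, 717 and 768 CPM in Ruc_High and 564, 890.004 and 902 CPM in Ruc_Low, and CENPA, the histone H3 of centromeres, 12.5, 14.96 and 19.1 CPM in Ruc_High and 12.9, 22.1 and 27.8 CPM in Ruc_Low. Both were low in replicate 1 of both sorted groups. DNA synthesis genes summed to 4144, 4227 and 4661 CPM in Ruc_Low at 24 h. RNAs without a poly(A) tail (22 listed, 10 with enough reads for a test, nearly all reads from RN7SL1 and RN7SL2) summed to 42.2, 37.3 and 42.9 CPM in Ruc_Low at 24 h and to 49.5, 77.7 and 30.95 CPM at 2 h, where replicate 1 lay between the others. The mean transcript length of Ruc_Low replicate 1 at 24 h, 3079 bases, lay above 2984 and 2995 bases in replicates 2 and 3. The part of these in the result was not tested.

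Ruc_Total against Vehicle asks what the drug did to unsorted cells. At 24 h H3F3B was higher in Ruc_Total and HIST1H2BH lower, but both passed only when the replicate number was taken as a block, and at 2 h no histone gene passed. Of 68 histone genes, 0 passed at 24 h with edgeR without the block, where 3.35% of all genes did, and DESeq2 gave 0. At an unadjusted p of 0.05 the count was 6 of 68, beside 4936 of all 20131 genes. With the block 2 passed (2.94%), where 24.0% of all genes did. At 2 h the count was 0 without the block (0.0248% of all genes, 0 with DESeq2) and 0 with it (0.144%). An unadjusted p of 0.05 was passed there by 3 of 68 without the block, beside 1314 of all 20131 genes.

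H3F3B had 2324, 2345 and 1657 CPM in Ruc_Total at 24 h, against 1616, 1566 and 1508 CPM in Vehicle. The groups did not overlap, though replicate 3 of Ruc_Total was close to Vehicle. The log2 fold change was 0.43 (SE 0.15, edgeR's adjusted p = 0.100), and 0.42 with the block (SE 0.12, adjusted p = 0.0226). HIST1H2BH, an H2B gene, had 0.775, 1.48 and 1.56 CPM in Ruc_Total at 24 h and 1.42, 2.48 and 2.15 CPM in Vehicle. Replicate 1 was the lowest in both groups, and the groups overlapped, but each Ruc_Total sample lay below the Vehicle sample of its number. Its log2 fold change was -0.66 (SE 0.41, edgeR's adjusted p = 0.322), and -0.70 with the block (SE 0.22, adjusted p = 0.0286). The median over the replication-dependent genes was -0.03, over the variant genes 0.28 and over all genes 0.03.

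The difference between the change at 24 h and that at 2 h was tested in the same fit. At an unadjusted p of 0.05 it passed for 9 of 68 histone genes, beside 4220 of all 20131 genes. After adjustment it passed for 0 of 68 (0.139% of all genes passed, 0 with DESeq2) and for 4 with the block (18.1% of all genes). On the log2 scale and with the block these were H3F3B at 0.60 (SE 0.18, edgeR's adjusted p = 0.0292), H2AFX at 0.74 (SE 0.23, 0.0381), HIST1H2BH at -0.94 (SE 0.30, 0.0416) and H2AFV at -0.27 (SE 0.09, 0.0496). With each sample's mean transcript length as a further term, none of these passed and HIST1H2AJ was the 1 gene that did. The mean length was 2746, 2711 and 3229 bases in Ruc_Total at 24 h against 3120, 3107 and 3231 bases in Vehicle.

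**Figure D4:**
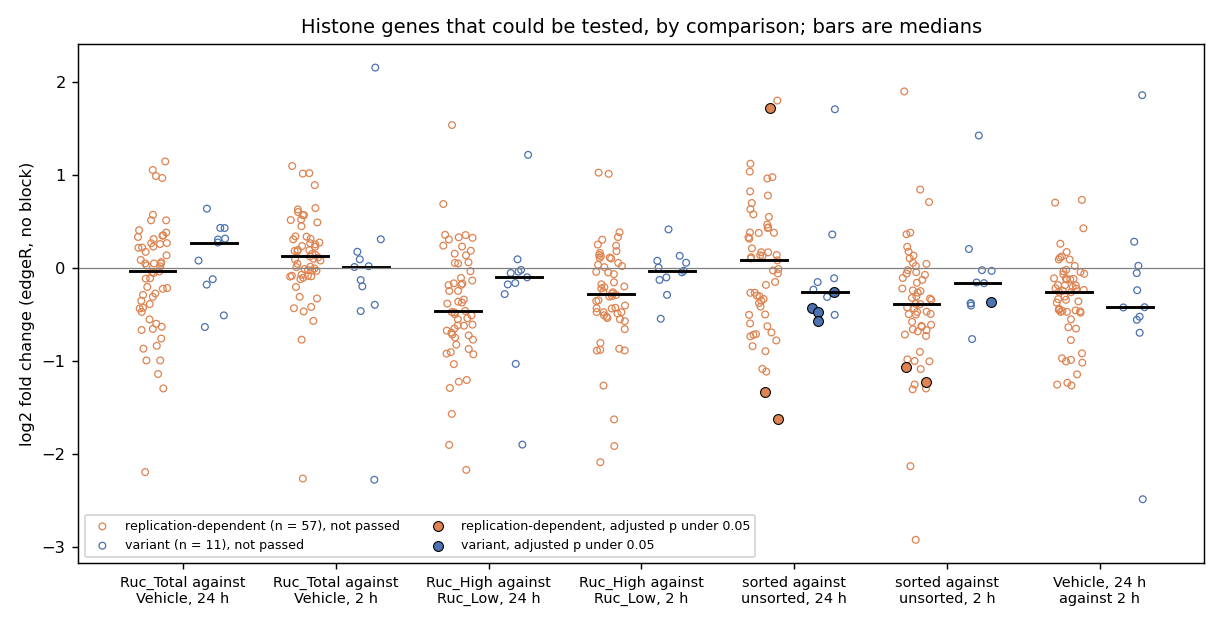
Log2 fold changes of the 57 replication-dependent (left of each pair) and 11 variant (right) histone genes in 7 comparisons, with medians as bars and filled points for an adjusted p under 0.05 with edgeR. Filled points are found in the 2 comparisons of sorted with unsorted cells, 7 at 24 h and 3 at 2 h.

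Sorted against unsorted treated cells compares the mean of Ruc_High and Ruc_Low with Ruc_Total, and so holds the effect of detaching and sorting. Of 11 tested variant genes, 4 were lower in sorted cells at 24 h (H2AFV, H2AFZ, H2AFX and H3F3B) and 1 at 2 h (H2AFV), and none was higher. HIST1H1B, a linker histone gene, and HIST2H3C, for H3, were lower at 24 h as well, HIST1H1E and HIST1H2BL at 2 h, and HIST4H4, an H4 gene, was higher at 24 h. At 24 h 6 histone genes were lower (5.14% of all genes were) and 1 was higher (4.32% of all), and at 2 h 3 were lower (1.17% of all genes) and 0 higher (1.24%). Counted in either direction, 10.3% of the 68 genes passed at 24 h beside 9.46% of all genes, and 4.41% at 2 h beside 2.41%.

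H2AFZ had 200, 213 and 217 CPM in Ruc_High and 209, 264 and 291 CPM in Ruc_Low at 24 h, against 334, 366 and 258 CPM in Ruc_Total. Replicate 3 of Ruc_Total lay below 2 Ruc_Low samples, and all other sorted samples lay below all Ruc_Total samples. The log2 fold change was -0.47 (SE 0.11, edgeR's adjusted p = 0.0135). H2AFV had 148, 149 and 149 CPM in Ruc_High and 147, 156 and 156 CPM in Ruc_Low at 2 h, against 188, 197 and 200 CPM in Ruc_Total. The groups did not overlap, and the log2 fold change was -0.37 (SE 0.07, edgeR's adjusted p = 0.0171). At 24 h it was -0.25 (SE 0.07, adjusted p = 0.0389).

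These changes were smaller on the TPM scale. H2AFV at 24 h had 132, 136 and 130.01 TPM in Ruc_High and 147, 165 and 157 TPM in Ruc_Low, against 136, 162 and 143 TPM in Ruc_Total, where the groups overlapped and limma on log2(TPM + 1) gave -0.02 (adjusted p = 0.939). The same test gave -0.32 for H2AFV at 2 h (adjusted p = 0.244), and at 24 h -0.33 for H2AFZ (adjusted p = 0.112) and -0.21 for H3F3B (adjusted p = 0.204). None of these passed on that scale.

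H3F3B had 1459, 1632 and 1468 CPM in Ruc_High and 1489, 1690.4 and 1697 CPM in Ruc_Low at 24 h, against 2324, 2345 and 1657 CPM in Ruc_Total. The log2 fold change was -0.42 (SE 0.13, edgeR's adjusted p = 0.0422), and replicate 3 of Ruc_Total lay inside the range of the sorted samples. The same Ruc_Total samples stand in the comparison with Vehicle, so the 2 results for H3F3B at 24 h are not independent.

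HIST4H4 had 0.857, 0.492 and 0.568 CPM in Ruc_High and 2.21, 0.437 and 0.515 CPM in Ruc_Low at 24 h, against 0.312, 0.182 and 0.249 CPM in Ruc_Total. Every sorted sample lay above every Ruc_Total sample, with Ruc_Low replicate 1 the highest, and the log2 fold change was 1.72 (SE 0.51, edgeR's adjusted p = 0.0386). HIST2H3C had 0.0907, 0.138 and 0.111 CPM in Ruc_High and 0.0612, 0.142 and 0.105 CPM in Ruc_Low, against 0.312, 0.433 and 0.259 CPM in Ruc_Total (log2 fold change -1.62, SE 0.39, edgeR's adjusted p = 0.0158). All its sequence is shared with other histone genes, so whether a gene or only the split of reads among copies changed is uncertain. Added up, HIST2H3A, HIST2H3C and HIST2H3D had 0.363, 0.276 and 0.234 CPM in Ruc_High and 0.459, 0.193 and 0.336 CPM in Ruc_Low. Ruc_Total had 0.366, 0.729 and 0.329 CPM, so these sums overlapped, and they were not tested. HIST1H1B had 0.212, 0.177 and 0.145 CPM in Ruc_High and 0.122, 0.163 and 0.231 CPM in Ruc_Low, against 0.516, 0.422 and 0.389 CPM in Ruc_Total (log2 fold change -1.33, SE 0.33, edgeR's adjusted p = 0.0190). Sorted and unsorted samples did not overlap for either gene, and all these levels are low.

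At 2 h HIST1H1E, a linker histone gene, had 0.456, 0.304 and 0.489 CPM in Ruc_High and 0.506, 0.396 and 0.507 CPM in Ruc_Low, against 0.926, 0.581 and 1.27 CPM in Ruc_Total (log2 fold change -1.06, SE 0.27, edgeR's adjusted p = 0.0416). HIST1H2BL had 0.156, 0.113 and 0.104 CPM in Ruc_High and 0.172, 0.0867 and 0.0844 CPM in Ruc_Low, against 0.402, 0.210 and 0.232 CPM in Ruc_Total (log2 fold change -1.23, SE 0.32, edgeR's adjusted p = 0.0469). Neither gene's groups overlapped.

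With the replicate block 11 histone genes (16.2%) passed at 24 h (24.7% of all genes), which added HIST1H2AL, H3F3A and H2AFJ lower and HIST1H3E higher, and 5 (7.35%) passed at 2 h (14.9% of all), which added H2AFZ and H3F3A lower. Without Ruc_Low replicate 1, 4 passed at 24 h: H2AFZ, HIST1H1B, HIST2H3C and HIST4H4. Between 0 and 6 passed at 24 h, and 0 or 1 at 2 h, when a replicate was left out. RNAs without a poly(A) tail summed to 29.7 to 63.4 CPM in Ruc_High and 37.3 to 42.9 CPM in Ruc_Low at 24 h. Ruc_Total had 56.7 to 122 CPM, which overlapped with Ruc_High. The mean transcript length was 2984 to 3142 bases in sorted samples, against 2746, 2711 and 3229 bases in Ruc_Total. Replicates 1 and 2 of Ruc_Total thus lay below all sorted samples and replicate 3 above them. Their part in the result was not tested.

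H2AFX encodes the H2A variant whose phosphorylated form, γH2AX, marks DNA breaks and was the study's readout of damage. At 24 h its CPM was lower in sorted cells and its TPM was not. In CPM it had 93.6, 87.3 and 96.4 in Ruc_High and 93.8, 104 and 115 in Ruc_Low, against 166, 152 and 117 in Ruc_Total, a log2 fold change of -0.56 (SE 0.15, edgeR's adjusted p = 0.0272), with replicate 3 of Ruc_Total just above the highest sorted sample. In TPM, which divides by length within each library, it averaged 33.4 ± 3.501 in Ruc_High and 40.1 ± 0.558 in Ruc_Low, against 36.2 ± 3.68 in Ruc_Total (SD, n = 3), and limma on log2(TPM + 1) gave 0.02 with an adjusted p of 0.967. The direction therefore depends on the scale. Between the sorted groups its CPM did not pass the test at 24 h (log2 fold change -0.17, SE 0.18) or 2 h (-0.13, SE 0.18). Most of its reads were placed on the form of 1592 bases (75.8 to 223 CPM) and fewer on that of 1373 bases (8.27 to 30.9 CPM).

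**Figure D5:**
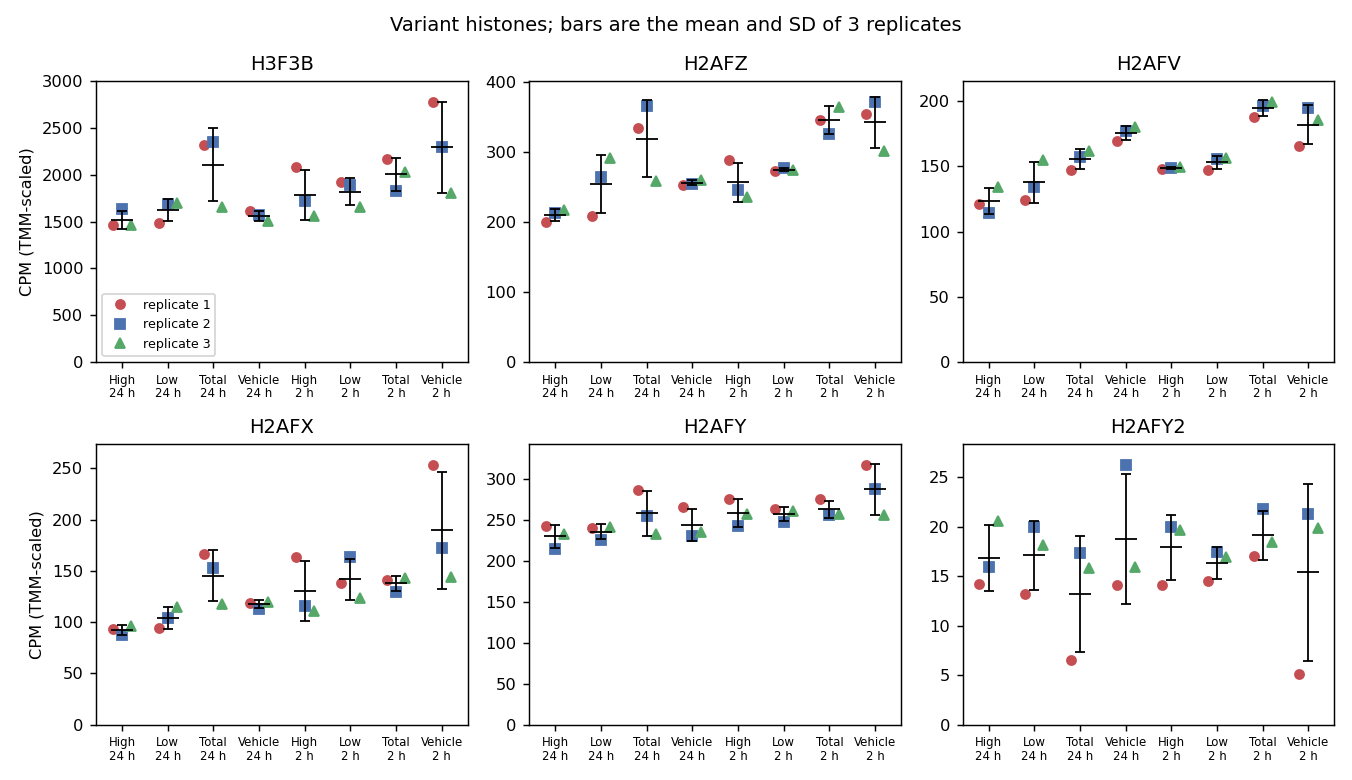
TMM-scaled CPM of 6 variant histone genes by group and replicate, with the mean and SD of 3 replicates as bars. H2AFV is lower in all Ruc_High and Ruc_Low samples at 2 h (147 to 156 CPM) than in Ruc_Total (188 to 200 CPM), and H2AFY2 has 2 low samples, at 6.48 and 5.10 CPM.

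Vehicle at 24 h against 2 h compares cells given DMSO without the drug for different times. Variant histones tended to be lower at 24 h, and none passed without the block: 0 of 68 histone genes did (0.0248% of all genes), 2 with DESeq2 (H2AFX and H3F3B), and 4, all lower, with the block (9.42% of all genes passed and 4.82% were lower). Without the block 11 of 68 passed an unadjusted p of 0.05, beside 3509 of all 20131 genes. H3F3B had 1616, 1566 and 1508 CPM in Vehicle at 24 h, against 2779.9, 2298 and 1809 CPM at 2 h. The samples at 2 h spread widely but all lay above those at 24 h, and the log2 fold change with the block was -0.54 (SE 0.12, edgeR's adjusted p = 0.0243). The other 3, with the block, were H2AFX at -0.67 (SE 0.16, edgeR's adjusted p = 0.0294), H2AFY at -0.24 (SE 0.07, 0.0423) and H2AFZ at -0.42 (SE 0.12, 0.0464). The mean transcript length differed too, at 3120, 3107 and 3231 bases in Vehicle at 24 h against 2729, 2747 and 3078 bases at 2 h, and its part was not tested. In TPM H2AFY had 156, 148 and 147 in Vehicle at 24 h against 167, 142 and 149 at 2 h, and H2AFZ 440.07, 424 and 490.2 against 441, 502 and 523. H2AFX had 44.9, 42.8 and 36.8 TPM at 24 h against 47.8, 56.1 and 42.9 TPM at 2 h. The times overlapped in each of these genes. Without the block, limma on log2(TPM + 1) gave -0.02 for H2AFY, -0.11 for H2AFZ and -0.25 for H3F3B, and none passed (adjusted p = 0.931, 0.691 and 0.447). The median log2 fold change was -0.25 over the replication-dependent genes and -0.42 over the variant genes, against -0.04 over all genes.

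H2AFY2 was low in 2 samples, both of replicate 1: 6.48 CPM in Ruc_Total at 24 h, where replicates 2 and 3 had 17.3 and 15.8 CPM, and 5.10 CPM in Vehicle at 2 h, where they had 21.3 and 19.8 CPM. In the other 22 samples it lay between 13.2 and 26.3 CPM.

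Histones outside the chosen names were read at high levels too. H1F0, a linker histone of resting and differentiated cells, had 564 to 902 CPM over the 24 samples and H1FX, another linker histone made through the cycle, 325 to 480 CPM, and neither passed in any comparison without the block. With it H1FX was lower in Vehicle at 24 h than at 2 h (log2 fold change -0.41, edgeR's adjusted p = 0.0287), and H1F0 passed for the difference of the rucaparib change between the times (0.45, adjusted p = 0.0482). CENPA, the histone H3 of centromeres, had 13.6, 20.8 and 20.4 CPM in Ruc_Total at 24 h, against 28.9, 29.3 and 32.3 CPM in Vehicle, with no overlap (log2 fold change -0.72, SE 0.27, edgeR's adjusted p = 0.125, and -0.76 with the block, adjusted p = 0.00472). Genes of G2 and mitosis, in which CENPA is also made, had a median log2 fold change of -0.85 in the same comparison, with 11 of 26 lower and none higher without the block (1.15% of all genes were lower and 2.20% higher) and 23 lower with it (10.8% of all genes), led by KIF20A (-1.95, SE 0.37, edgeR's adjusted p = 0.00939) and BUB1 (-1.52, SE 0.39, adjusted p = 0.0403).

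Factors that act on histone RNA and histone proteins were taken from lists. SLBP, the stem-loop binding protein, had 129 to 239 CPM and NPAT, the coactivator of replication-dependent histone genes, 13.99 to 40.4 CPM, and neither passed in any comparison without the block. With the block SLBP was higher and NPAT lower in Ruc_Total than in Vehicle at 24 h (log2 fold changes 0.27 and -0.84, edgeR's adjusted p = 0.0433 and 0.0129). NPAT had 13.99, 16.1 and 36.5 CPM in Ruc_Total there, against 36.5, 34.1 and 40.4 CPM in Vehicle. SLBP had 198, 188 and 142 CPM against 155, 144 and 137 CPM. The groups overlapped for both genes, and replicate 3 differed least. Its mean transcript lengths, 3229 and 3231 bases, also differed least, and the part of length was not tested. SLBP was also lower in sorted cells at 24 h (-0.33, adjusted p = 0.00647) and in Vehicle at 24 h than at 2 h (-0.48, adjusted p = 0.0109). Of 18 tested genes for histone RNA processing, 1 was lower in sorted cells at 24 h (5.56%, beside 5.14% of all genes), the 3' end nuclease gene CPSF3 (-0.29, SE 0.08, edgeR's adjusted p = 0.0359), and 7 with the block (38.9%, beside 13.9%). Of 23 tested histone chaperone genes, 3 (13.04%) were lower in sorted cells at 24 h (NAP1L4, CHAF1B and SSRP1, between -0.33 and -0.30 on the log2 scale) and 1 at 2 h (4.35%, beside 1.17% of all genes), HAT1 (-0.50, SE 0.10, edgeR's adjusted p = 0.0161). Of 16 polyadenylation factors, 2 (12.5%, beside 1.15% of all genes) were lower in Ruc_Total than in Vehicle at 24 h, RBBP6 and CPSF6 (-0.46 and -0.38, edgeR's adjusted p = 0.0151 and 0.0202), and RBBP6 was higher in sorted cells at 24 h (0.27, adjusted p = 0.0471), as were 4.32% of all genes. The same Ruc_Total samples stand in both comparisons, so the 2 results for RBBP6 are not independent. The part of transcript length in them was not tested.

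Genes of DNA synthesis, which are active in S phase like replication-dependent histone genes, were lower in sorted than in unsorted treated cells at 24 h. Their sums were 4074, 3594 and 4305 CPM in Ruc_High and 4144, 4227 and 4661 CPM in Ruc_Low. Ruc_Total had 6214, 5497 and 4721 CPM, so in replicate 3 it lay close to Ruc_Low. Replicates 1 and 2 of Ruc_Total also had a lower mean transcript length (2746 and 2711 bases) than replicate 3 (3229 bases). The part of length was not tested. Without the block 12 of 39 of these genes were lower (30.8%, beside 5.14% of all genes) and none higher, with a median log2 fold change of -0.31 against 0.01 over all genes. With the block 25 of these genes were lower (13.9% of all genes) and 1 higher. FEN1, a flap endonuclease, had the largest change of them (-0.80, SE 0.20, edgeR's adjusted p = 0.0183). At 2 h 1 of 39 was lower (2.56%, beside 1.17% of all genes), RFC2 (-0.42, SE 0.09, edgeR's adjusted p = 0.0202). The replication-dependent histone genes had a median of 0.08 at 24 h and -0.39 at 2 h in the same comparisons. The sorted samples there include Ruc_Low replicate 1, which had the highest sums of that class (101 CPM at 24 h and 79.3 CPM at 2 h). No gene of these lists passed in Ruc_High against Ruc_Low at either time, with or without the block.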

How the data were processed

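RNA of the 72 libraries was selected on poly(A) and sequenced strand-specifically. Per the submitters' processing notes, cutadapt 4.7, Salmon (version not given), DESeq2 1.44.0 and GRCh38 were used. The deposited tables, made by the authors with Salmon, hold 1 line per transcript with estimated counts (reads) and TPM, and both were used. The study's text does not describe these libraries further. Of 257369 transcripts, 194437 were matched to genes with GENCODE release 29 and 11562 through a table of gene symbols, and 51370 were left out. Estimated counts were summed per gene and over the 3 libraries of a replicate, taken as technical repeats, and rounded. No 2 libraries agreed within sampling noise. The labels do not say whether replicates were separate cultures, and p-values measure only the spread between these samples.

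Genes were tested with edgeR 4.0.16 (R 4.3.3; filterByExpr, TMM, quasi-likelihood, all 24 samples in 1 fit, Benjamini-Hochberg adjustment over 20131 genes, threshold 0.05). CPM of genes are TMM-scaled, and sums per library are plain CPM of reads in genes. Replicate numbers were taken as pairs, which is an assumption for these libraries. The study states that replicates of imaging and sorting experiments came from different days, but does not name these RNA libraries. Samples of the same number deviated together, with a median correlation of 0.286 (lowest -0.065, 84 pairs), against -0.124 for different numbers. Alternatives were the replicate block (alone and with transcript length), DESeq2 1.42.0, its size factors, other filters, a length offset, limma 3.58.1 on log2(TPM + 1), and samples left out. The procedure was tested on simulated data. Named were the 8 replication-dependent and 8 variant genes with the highest mean TPM, up to 6 genes per direction among those past the threshold, H2AFX, up to 2 listed genes per direction and comparison, and SLBP, NPAT, H1F0, H1FX and CENPA. Genes named beyond this rule were chosen after their values were seen. The members and lists (histone RNA processing, histone chaperones, polyadenylation factors, other histones, DNA synthesis, G2 and mitosis, RNAs without a poly(A) tail, markers of ovarian epithelium and of other cell types) were chosen with earlier results of these data known.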

Additional observations from a re-analysis of the deposited data

Results flagged for a closer look

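Among groups of 9 libraries, 4 values lay apart from the others of their group, among 40 groups looked at. Chance alone would set apart about 1 in 20 groups if all values were independent. Here each group holds 3 libraries of each of 3 replicates, and some measures share reads, so that rate need not hold. The replication-dependent histone reads of Vehicle at 24 h, replicate 2, library 1 summed to 54.98 CPM, where the next library had 43.8 CPM. The variant histone reads of Vehicle at 24 h, replicate 1, library 3 summed to 2802 CPM, where the next had 2599 CPM. H2AFX had 292 CPM in Ruc_Low at 2 h, replicate 2, library 2, where the next had 162 CPM, and 349 CPM in Vehicle at 2 h, replicate 1, library 1, where the next had 204 CPM. The last 2 are the libraries with over 25000 genes detected. H2AFY2 was higher in sorted than in unsorted treated cells at 24 h in each replicate and lower at 2 h in each, by 0.45 and -0.16 on log2(CPM + 0.5), a difference of 0.61 between the times that was not tested. At 24 h the replicates gave 1.02, 0.04 and 0.28, and the first of these holds the low Ruc_Total sample with 6.48 CPM. Without replicate 1 the mean was 0.16 at 24 h and -0.12 at 2 h.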

How the results depend on the processing

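The counts of histone genes past the threshold were recomputed under 14 settings, and 87 of 112 recomputed counts stayed within 1.5 times the reported one, while 25 moved. For Ruc_Total against Vehicle at 24 h (0 reported), the replicate block gave 2, and leaving out a replicate gave 0 to 2. For the difference of the rucaparib change between the times (0 reported), the replicate block gave 4, the block with transcript length 1, and leaving out a replicate 0 to 3. For sorted against unsorted cells at 2 h (3 reported), the replicate block gave 5, the block with transcript length 8, keeping every gene with at least 1 read 0, at least 1 CPM in 3 samples 1, the offset for effective length 0, the fit of only the groups compared 1, limma on log2(TPM + 1) 0, and leaving out a replicate 0 to 1. At 24 h (7 reported) the replicate block gave 11, at least 1 CPM in 3 samples 3, the offset for effective length 1, the fit of only the groups compared 0, limma on log2(TPM + 1) 0, leaving out Ruc_Low replicate 1 4, and leaving out a replicate 0 to 6. For Vehicle at 24 h against 2 h (0 reported), the replicate block gave 4 and DESeq2 2. Ruc_High against Ruc_Low kept a count of 0 at both times under each setting run. Leaving out Ruc_Low replicate 1 was chosen after seeing the data. Of 356 values of single genes under these settings, 267 kept their direction and side of the threshold, 60 lost it, 28 gained it and 1 turned round: H2AFX in sorted against unsorted cells at 24 h was 0.015 on log2(TPM + 1) with limma. The median replication-dependent sum of 43.5 CPM was 37.1 CPM with GENCODE matches only, 39.96 per 1000000 of all reads and 41.8 CPM without Ruc_Low replicate 1. The causes were not tested. At these low counts, most replication-dependent genes allow only large changes to pass the test, and shared sequence and the estimated split among forms limit single copies.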
